A study of Mus musculus with 6 samples.

Results

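The 10 genes of the endoplasmic reticulum (ER) stress response followed here were Hspa5, Hsp90b1, Calr, Pdia4, Xbp1, Dnajb9, Atf4, Atf3, Ddit3 and Trib3. They were measured by RNA sequencing in immortalized epicardium-derived cardiosphere-derived cells (iECDCs) of the mouse, in control cells and in cells induced with 5-azacytidine. The genes were taken by name from a count table of 54532 rows, where they filled 11 rows because Ddit3 is listed under 2 identifiers. One of these (ENSMUSG00000116429, a short reading frame of 105 bases inside the gene) had 0 reads in all libraries, and Ddit3 below means the other row. All 10 genes had enough reads to be tested among 14246 tested genes.

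The cells were grown from the epicardium of the ventricle of 6-week-old C57BL/6 mice and kept dividing by a lentiviral human telomerase transgene under a CMV promoter, so that every library carries the transgene and comes from 1 drug-selected line at passage 30. The 3 control libraries came from this line, and the 3 induced libraries came from cells given 10 µM 5-azacytidine, an inhibitor of DNA methylation, for 3 days and then kept for 4 weeks in IMDM with 2% serum according to the labels. The methods of the study name a low-glucose medium and a shorter culture for the same induction, and describe routine growth with more serum, without saying how the sequenced control cells were kept. Drug, serum, medium and time in culture cannot be told apart in this comparison. The labels call the libraries separate samples and do not state separate cultures, so p-values measure the spread between these samples, which may be technical. The methods of the study speak of 2 biological replicates for each condition, whereas the labels and the table hold 3 libraries a group, so n below counts libraries and may not count independent cultures.

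Total counts were 19343728 to 19823369 reads in control libraries and 19041133 to 19449606 in induced libraries. The line markers Eng, Thy1, Ly6a, Upk3b and Tbx18 were well above the detection limit in every library. All 5 passed edgeR's test at an adjusted p under 0.05. Their log2 fold changes were 1.89 for Upk3b, 0.54 for Thy1, 0.12 for Eng, -0.57 for Ly6a and -0.33 for Tbx18. The leukocyte genes Ptprc, Cd52, Tyrobp, Itgam and Adgre1 had 0 reads in all 6 libraries. The 6 endothelial genes summed to 1.60 to 1.89 CPM in control and 1.21 to 2.31 CPM in induced libraries. Among them Pecam1 and Cdh5 had 3 and 1 control reads and 6 and 1 induced reads. Tek had 7 control and 32 induced reads, and Vwf 78 and 58. The summed level of the 8 leukocyte genes was 23.6 to 25.9 CPM in control and 39.7 to 45.9 CPM in induced libraries. Within this sum Cd68 rose from 1.95 to 29.2 CPM and Fcer1g from 0.0338 to 3.29 CPM, while Csf1r fell from 22.6 to 10.9 CPM. Of the 6 cardiomyocyte genes, Myh6 and Actn2 had no reads in control cells, against 1 and 8 in induced cells, and the summed level was 12.9 to 16.1 and 59.0 to 62.7 CPM, carried by Tnnt2. All 6 proliferation genes were lower in induced cells, and their sum was 554 to 584 CPM against 152 to 163 CPM, Mki67 among them with a log2 fold change of -2.01 and Top2a with -1.82. The part of these shifts in the results below was not tested.

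The ER folds secreted and membrane proteins. When unfolded proteins pile up, 3 sensors in its membrane start the unfolded protein response. ATF6 is cut by proteases and its free part switches on chaperone genes, IRE1 splices Xbp1 mRNA so that it encodes an active transcription factor, and PERK phosphorylates the initiation factor eIF2alpha, which lowers protein synthesis in general but favours translation of Atf4. ATF4 in turn drives Ddit3, Atf3 and Trib3, a branch that other eIF2alpha kinases can also start and that is then called the integrated stress response. Cells that secrete much protein, fibroblast-like cells of the heart among them, draw on this response.

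The chaperone genes are the classical carriers of the ER stress element, CCAAT and CCACG set 9 bases apart, which ATF6 binds with the factor NF-Y. The element was searched on both strands of the 250 bases before each RefSeq start (GRCm38.p6, 1 window for each of the 10 genes). It was found in the windows of 3 genes, Hspa5, Hsp90b1 and Calr, and in 37 of 32851 windows of the genome, or 0.113%. The 4 copies are shown because they are all those found in the members' windows, each read with CCAAT first, with both motif parts in capitals and 5 bases on each side.
Hspa5: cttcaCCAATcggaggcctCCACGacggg
Hsp90b1, distal: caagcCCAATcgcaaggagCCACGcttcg
Hsp90b1, proximal: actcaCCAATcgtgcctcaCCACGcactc
Calr: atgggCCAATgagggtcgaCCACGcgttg
The Hspa5 copy lies at chr2:34772020-34772048 (plus strand), the Hsp90b1 copies at chr10:86705633-86705661 and chr10:86705528-86705556 and the Calr copy at chr8:84847070-84847098 (both genes on the minus strand). Counted from the RefSeq start, the element without its flanks runs from -65 to -47 in Hspa5, from -212 to -194 and from -107 to -89 in Hsp90b1 and from -162 to -144 in Calr. The proximal Hsp90b1 copy and the Calr copy are read from the strand opposite to the gene. The Hspa5 copy lies inside the span that the deposited table gives to Hspa5, which begins upstream of the RefSeq start.

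The parts alone are common, with CCAAT in 33.8% and CCACG in 28.3% of all windows, and the Pdia4 window held CCAAT without CCACG. The Hsp90b1 promoter is shown whole up to its first annotated exon (chr10:86705510-86705694, minus strand, 185 bases, positions -250 to -66), since it holds both copies, in capitals here as they read on the gene's strand.
Hsp90b1 promoter: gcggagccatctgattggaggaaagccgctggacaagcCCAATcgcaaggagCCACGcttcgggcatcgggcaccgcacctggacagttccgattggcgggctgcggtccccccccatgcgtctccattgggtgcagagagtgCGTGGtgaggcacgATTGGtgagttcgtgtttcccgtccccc
Short motifs were searched in the same way. TGATGNAA, the core of the C/EBP-ATF element bound by ATF4 with its partners, was in 3.45% of windows and among the members only in that of Atf3, from -110 to -103 (chr1:191183431-191183448, shown from the strand opposite to the gene with the motif in capitals).
Atf3: cttggTGATGCAAgtgcg
The XBP1 and ATF6 site TGACGTGA was in 0.350% of windows and among the members only in that of Hspa5 (chr2:34771928-34771945), while TGACGTGG (0.563% of windows) and the cyclic AMP response element TGACGTCA (1.55%) were in none of the 10. The windows of Pdia4, Xbp1, Dnajb9, Atf4, Ddit3 and Trib3 held none of these motifs other than the parts CCAAT and CCACG, which says only that these letters are not in these windows. The Dnajb9 window begins inside an annotated exon of Dnajb9, so sequence upstream of all its exons was not searched. The Atf3 window lies inside the span that the deposited table gives to Atf3.

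**Figure D1:**
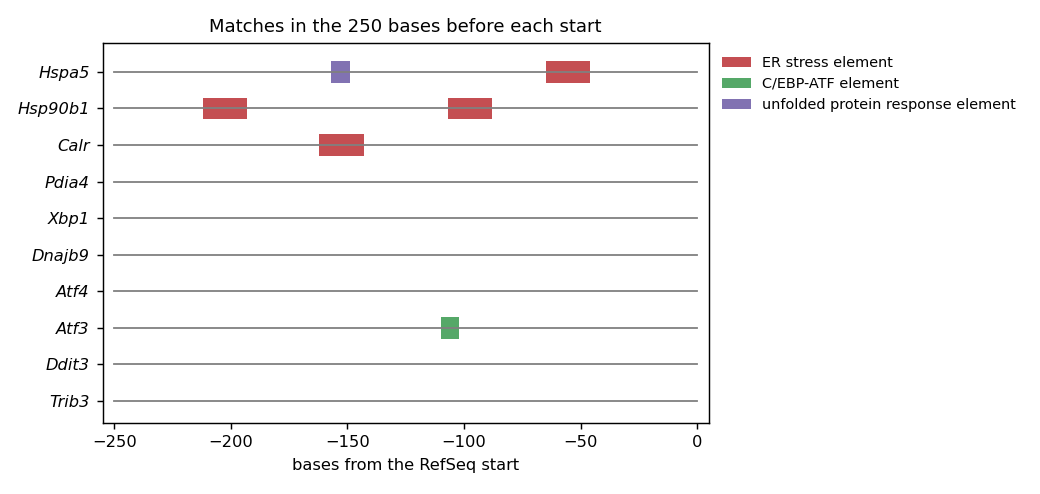
Matches in the 250 bases before the RefSeq start of each member, with distance from the start in bases on the horizontal axis and 1 line per gene. ER stress elements (red) lie before Hspa5, Calr and, in 2 copies, Hsp90b1, the short unfolded protein response element (purple) before Hspa5 and the C/EBP-ATF element (green) before Atf3.

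Induced cells held more RNA of 9 of the 10 genes. The rises were largest for Ddit3, 4.51-fold, Trib3, 2.99-fold, and Dnajb9, 2.13-fold, while Atf3, also downstream of ATF4, rose 1.36-fold. Among the chaperones Hspa5 rose 1.61-fold and Pdia4 did not pass the test. The arms overlapped in the size of their members' fold changes, and a difference between arms was not tested. By edgeR's quasi-likelihood test with an adjusted p under 0.05, 9 members were higher and 0 lower, and 3 were at least 2-fold higher. Changes were widespread in these libraries, with 64.8% of all tested genes past the same threshold. Of all tested genes 32.6% were higher, 32.2% lower and 9.29% at least 2-fold higher. The median log2 fold change was 0.57 over the 10 members and -0.01 over all tested genes. The members were chosen with earlier results of these data known, so these comparisons are descriptions only. The groups did not overlap for 9 of the 10 members and for 68.6% of tested genes. In bulk RNA a change in RNA per cell and a change in the mix of cells cannot be told apart.

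**Figure D2:**
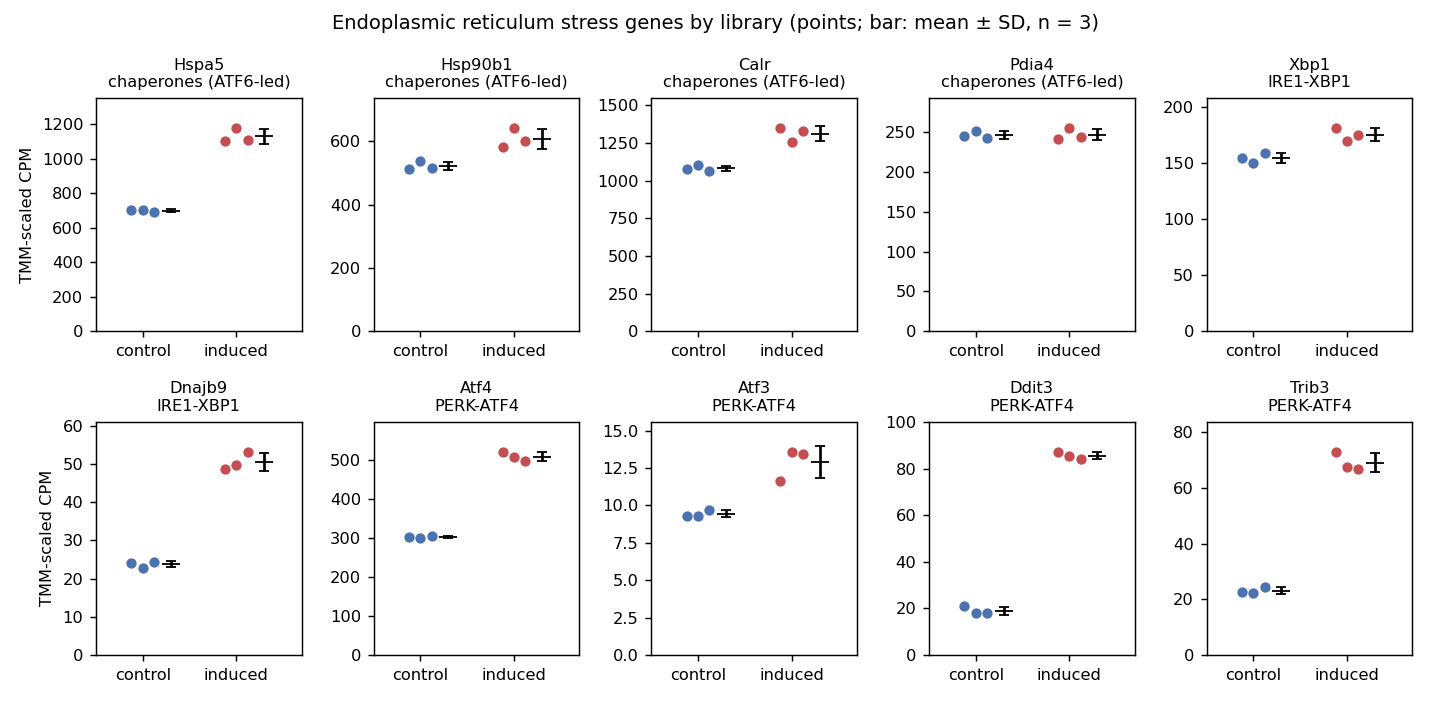
TMM-scaled levels in CPM of the 10 members in each of 3 control (blue) and 3 induced (red) libraries, 1 panel per gene with its own axis from 0, with the mean ± SD beside the points. In 9 panels every induced library lies above every control library, and in the Pdia4 panel the groups overlap.

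Hspa5 encodes BiP, the main ER chaperone of the Hsp70 family, which also holds the 3 sensors inactive until unfolded proteins draw it away. Levels in TMM-scaled CPM, the share of a library's reads after scaling between libraries, were 705, 701 and 693 in control libraries and 1102, 1175 and 1107 in induced libraries. The groups were far apart, and the mean rose from 699 ± 6.20 to 1128 ± 40.8 CPM (SD, n = 3 each), a log2 fold change of 0.69 (SE 0.04, edgeR adjusted p 6.65e-11). Hspa5 (ENSMUSG00000026864) spans 34771970 to 34777547 on the plus strand of chromosome 2 in the deposited table, which has mm10 coordinates by the processing notes.

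Hsp90b1, the ER member of the Hsp90 family (GRP94), rose less. It was at 511, 537 and 517 CPM in control libraries and at 581, 641 and 602 CPM in induced libraries. The highest control and the lowest induced library were close, and the log2 fold change was 0.22 (SE 0.05, edgeR adjusted p 0.000419). For Hsp90b1 (chromosome 10, 86690209 to 86705509, minus strand), 15.7% of the exon bases are shared with other annotated genes, among them the noncoding 1810014B01Rik on the opposite strand, and how reads on shared bases were counted is not stated. 1810014B01Rik had 209 reads in all 6 libraries, against 65553 for Hsp90b1.

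Calr encodes calreticulin, the calcium-binding lectin that helps glycoproteins fold. It was the most abundant member per length and was at 1078, 1103 and 1065 CPM in control libraries and at 1348, 1254 and 1332 CPM in induced libraries. Every induced library was above every control library, with a log2 fold change of 0.28 (SE 0.04, edgeR adjusted p 1.27e-05). Calr (ENSMUSG00000003814) spans 84841850 to 84846934 on the minus strand of chromosome 8.

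Pdia4, a protein disulfide isomerase of the ER, was the exception. Its levels were 245, 252 and 243 CPM in control libraries and 242, 255 and 244 CPM in induced libraries. The groups overlapped almost fully, and the log2 fold change was 0.00 with a 95% interval of -0.09 to 0.10 (edgeR adjusted p 0.964). Its sign depends on the scaling and on single libraries, being -0.03 under library totals alone. Pdia4 (chromosome 6, 47796141 to 47813430, minus strand) had 14628 reads over the control libraries and 14061 over the induced libraries.

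Of the IRE1 arm, Xbp1 itself rose little. It was at 155, 150 and 159 CPM in control libraries and at 181, 170 and 176 CPM in induced libraries, a log2 fold change of 0.18 (SE 0.05, edgeR adjusted p 0.00347). The groups were apart by about their own spread. Xbp1 (chromosome 11, 5520659 to 5525893, plus strand) is activated by splicing of its mRNA in the cytoplasm, and counts per gene do not separate the spliced from the unspliced form. Dnajb9, which encodes the BiP cochaperone ERdj4 and is a target of spliced XBP1, was at 24.0, 22.8 and 24.5 CPM in control libraries and at 48.7, 49.9 and 53.1 CPM in induced libraries. The groups were far apart, and the fold between the means was 2.13 (log2 fold change 1.09, SE 0.06, edgeR adjusted p 3.74e-11). Dnajb9 (chromosome 12, 44205559 to 44210326, minus strand) has a partial copy, Gm6568, with 98.1% identity over 156 bases, to which 2 reads were counted in all 6 libraries.

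Atf4, the transcription factor at the centre of the integrated stress response, is controlled mainly by translation. Its mRNA was at 303, 300.4 and 305 CPM in control libraries and at 521, 510 and 498 CPM in induced libraries. The mean rose from 303 ± 2.53 to 510 ± 11.7 CPM (SD, n = 3 each), a fold of 1.68 (log2 fold change 0.75, SE 0.04, edgeR adjusted p 2.78e-11). Atf4 (chromosome 15, 80255184 to 80257541, plus strand) lies on a chromosome whose 561 tested genes had a median log2 fold change of -0.24, and it moved against that median. No other chromosome was examined in this way, so how unusual this median is was not tested.

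Ddit3 encodes CHOP, a transcription factor linked to cell death under lasting ER stress, and had the largest rise of the members. It was at 21.0, 17.9 and 17.98 CPM in control libraries and at 87.1, 85.4 and 84.1 CPM in induced libraries. The induced libraries lay within a narrow band more than 4 times above the control libraries, with a log2 fold change of 2.17 (SE 0.06, edgeR adjusted p 2.47e-15). This fold change was above that of 96.4% of all tested genes. Ddit3 (ENSMUSG00000025408, chromosome 10, 127290774 to 127296288, plus strand) shares 10.9% of its exon bases with other genes, among them Mars on the opposite strand. Mars, a methionine tRNA synthetase, did not pass the test, with 107 ± 1.66 CPM in control and 113 ± 5.66 CPM in induced libraries (log2 fold change 0.08, edgeR adjusted p 0.204).

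Trib3, a pseudokinase induced by ATF4 and CHOP that in turn restrains ATF4 activity, followed with 22.4, 22.3 and 24.6 CPM in control libraries and 72.9, 67.6 and 66.7 CPM in induced libraries. The groups were widely apart (log2 fold change 1.58, SE 0.06, edgeR adjusted p 1.15e-13). Trib3 lies on chromosome 2, at 152337422 to 152344032 on the minus strand. Atf3, an early stress-induced transcription factor, was the lowest of the 10, with 9.32, 9.33 and 9.72 CPM in control libraries and 11.6, 13.6 and 13.5 CPM in induced libraries. The first induced library was nearest to the controls, and the log2 fold change was 0.45 (SE 0.10, edgeR adjusted p 0.00108), the smallest of the ATF4 arm. Atf3 spans 191170296 to 191218039 on the minus strand of chromosome 1.

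Summed over an arm, the 4 chaperones stood at 2518 to 2592 CPM in control and 3274 to 3326 CPM in induced libraries. In the same order, the 4 genes of the PERK and ATF4 arm stood at 350 to 358 and 662 to 693 CPM. Xbp1 with Dnajb9 stood at 173 to 184 and 220 to 230 CPM. The median log2 fold change of the members was 0.25 in the chaperone arm and 1.17 in the ATF4 arm, and these medians are descriptions without a test of the difference.

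Levels of different genes were compared per length, by the FPKM deposited by the authors, which divides reads by gene length and library depth. In control cells the order ran from Calr at 372 ± 5.80 FPKM and Hspa5 at 164 ± 1.29 FPKM down to Dnajb9 at 9.23 ± 0.342 FPKM and Atf3 at 4.35 ± 0.112 FPKM (SD, n = 3). Neighbours in this order were separate in every library except Hsp90b1 and Atf4 (128 ± 3.07 and 127 ± 1.33 FPKM) and Ddit3 and Trib3 (10.97 ± 1.010 and 10.8 ± 0.610 FPKM), which overlapped. In induced cells all neighbours were separate. Atf4 then stood above Hsp90b1 (216 ± 5.00 and 151 ± 7.33 FPKM), and Ddit3 at 49.8 ± 0.903 FPKM was close to Xbp1 at 53.9 ± 1.87 FPKM.

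**Figure D3:**
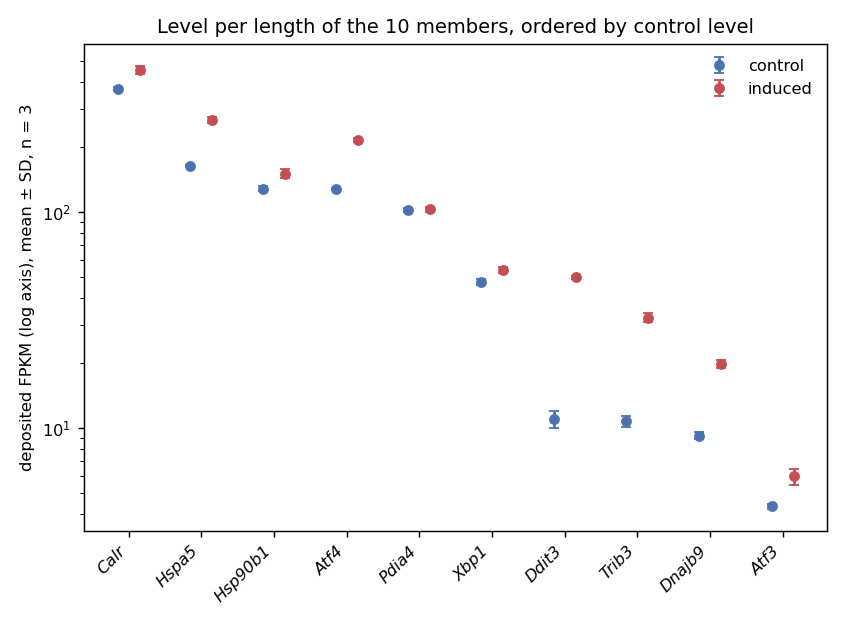
Deposited FPKM of the 10 members on a log axis, as mean ± SD over 3 control (blue) and 3 induced (red) libraries, ordered by control level. The order from Calr to Atf3 spans 372 to 4.35 FPKM in control cells, and Ddit3 comes close to Xbp1 in induced cells.

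The sensors of the response were examined next. Beside the counts of each list below, 32.6% of all tested genes were higher and 32.2% lower. Of 12 genes for sensors, their proteases and related ER-bound transcription factors, 11 were tested, and 4 were higher, 4 lower and 3 not past the threshold, with a median log2 fold change of 0.06. All 3 classical sensors were among the higher ones. Atf6 rose from 83.1 ± 1.67 to 166 ± 12.6 CPM (edgeR adjusted p 2.91e-11, log2 fold change 1.00), Ern1, which encodes IRE1, from 41.5 ± 2.30 to 78.7 ± 2.43 CPM (0.92) and Eif2ak3, which encodes PERK, from 39.8 ± 2.26 to 51.5 ± 5.33 CPM (0.37). The fourth was Creb3. The 4 lower genes were Atf6b, Creb3l1, Creb3l3 and Mbtps2, one of the proteases that cut ATF6, which had a log2 fold change of -0.30. The largest fall was that of Creb3l3, from 6.22 ± 0.575 to 1.48 ± 0.220 CPM (edgeR adjusted p 2.05e-08, log2 fold change -2.07). Mbtps1, the other protease, was at 259 ± 4.35 and 258 ± 0.308 CPM and did not pass.

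Of 11 genes that set or reverse eIF2alpha phosphorylation or use its signal, 3 were higher, 4 lower and 4 not past the threshold. These 7 called genes stand beside 64.8% of all tested genes called, and the list had a median log2 fold change of -0.06. The higher ones were Ppp1r15a and Ppp1r15b, which encode the phosphatase subunits GADD34 and CReP that reverse it, and Eif2ak2, the double-stranded RNA-activated kinase PKR, itself an interferon-induced gene. Ppp1r15a rose from 31.7 ± 1.21 to 64.4 ± 1.58 CPM (edgeR adjusted p 1.33e-11, log2 fold change 1.02), Ppp1r15b had a log2 fold change of 0.35, and Eif2ak2 rose from 28.4 ± 1.23 to 53.0 ± 5.83 CPM (0.90). Eif2ak4, the amino acid-sensing kinase GCN2, fell from 36.1 ± 0.942 to 26.5 ± 2.95 CPM (-0.45, edgeR adjusted p 5.26e-05). The other lower ones were Eif2b1, Eif2b2 and Eif2b4, subunits of the exchange factor that phosphorylated eIF2alpha blocks.

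Beyond the 4 members, 23 ER chaperones and folding enzymes were tested, of which 15 were higher, 3 lower and 5 not past the threshold (median log2 fold change 0.25). The oxidases Ero1a and Ero1b, listed as Ero1l and Ero1lb, were the ones with at least 2-fold rises, Ero1l from 94.4 ± 4.30 to 247 ± 15.04 CPM (edgeR adjusted p 1.67e-13, log2 fold change 1.39). Dnajc3, the BiP cochaperone p58IPK, rose by 0.99 on the log2 scale, Hyou1, an exchange factor for BiP, by 0.78, P4hb, the main disulfide isomerase, by 0.65, Canx, the membrane partner of calreticulin, by 0.34 and the secreted factor Manf by 0.23. The lower ones were Pdia5 (-0.37), Pdia6 (-0.29) and Ppib (-0.18), 2 disulfide isomerases and a proline isomerase. Sdf2l1 was at 25.9 ± 1.75 and 29.4 ± 3.36 CPM and did not pass (edgeR adjusted p 0.0734), but it passed with no filter on low counts (0.0493) and without induced replicate 2 (0.00269).

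ER-associated degradation, which returns misfolded proteins to the cytosol for the proteasome, was the list with the most uniform direction. Of 17 genes 16 were tested, and 14 were higher, 0 lower and 2 not past the threshold (median log2 fold change 0.36, against 32.6% of all tested genes higher). The list was chosen with earlier results of these data known, so this comparison is a description only. Herpud1, a scaffold of the degradation complex, rose from 67.7 ± 2.40 to 129 ± 4.43 CPM (edgeR adjusted p 2.93e-11, log2 fold change 0.93), Sel1l, the adaptor of the ubiquitin ligase, by 0.76 and the ligase Syvn1 by 0.21. Edem1, which picks glycoproteins for degradation, had the smallest call, with a log2 fold change of 0.15 (edgeR adjusted p 0.0169), a call that did not stand with scaling by library totals (0.0741) or when control replicate 2 or 3 was left out (0.0601 and 0.0527). The 2 genes not past the threshold were Edem2 and Erlec1, and Derl3, with 6 control and 12 induced reads, was not tested.

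Genes for translocation into the ER and export from it moved in both directions. Of 18 tested genes, 7 were higher, 7 lower and 4 not past the threshold, with a median of 0.05. The signal peptidase subunit Sec11c rose most (0.92), while Ssr4, a subunit of the translocon-associated complex, had the largest fall (-0.41), beside Sec61a1, the channel itself (-0.25), and Ssr1 (-0.33).

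The targets of ATF4 also split. Of 27 genes, all tested, 14 were higher, 9 lower and 4 not past the threshold (median log2 fold change 0.18), with 6 at least 2-fold higher and 2 at least 2-fold lower. Chac1, which degrades glutathione, rose from 29.6 ± 1.82 to 117 ± 4.99 CPM (edgeR adjusted p 3.33e-15, log2 fold change 1.99), and Sesn2, an inhibitor of mTORC1 signalling, from 36.5 ± 1.37 to 75.7 ± 3.43 CPM (1.05). The hormone gene Fgf21 had the largest rise, with 6 control and 144 induced reads (log2 fold change 4.56, SE 0.46, edgeR adjusted p 8.53e-08). The other 3 at least 2-fold higher were Nupr1, Slc3a2 and Vldlr, at 2.04, 1.06 and 1.12 on the log2 scale, named after their values were seen. Gdf15 had a log2 fold change of 0.38 (edgeR adjusted p 0.0196), which was lost without control replicate 3 (0.0642) or induced replicate 3 (0.0690).

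The 9 lower genes of the list were Psat1, Cth, Pck2, Stc2, Shmt2, Pycr1, Cebpb, Aldh18a1 and Asns, most of them enzymes of amino acid and one-carbon metabolism. Psat1, a serine synthesis enzyme, fell from 135 ± 3.00 to 43.2 ± 1.73 CPM (edgeR adjusted p 1.13e-14, log2 fold change -1.65), and asparagine synthetase, Asns, from 109.9 ± 0.876 to 94.9 ± 3.79 CPM (-0.21, edgeR adjusted p 0.00151). Phgdh, the first enzyme of serine synthesis, had a log2 fold change of 0.13 (edgeR adjusted p 0.0263), which did not pass with scaling by library totals (0.0918) or when control replicate 1 or induced replicate 1 was left out (0.155 and 0.0745). Psph, the last enzyme of serine synthesis, named after its value was seen, had a log2 fold change of 0.61 (edgeR adjusted p 1.3e-07). The other gene at least 2-fold lower was Cth, of cysteine synthesis (-1.38), and Shmt2, Pycr1 and Aldh18a1, named after their values were seen, had log2 fold changes of -0.57, -0.42 and -0.26. Slc7a11, the cystine importer, was at 3.34 ± 0.352 and 4.25 ± 0.361 CPM and did not pass (edgeR adjusted p 0.0842), and the transcription factor Cebpb fell by 0.34 on the log2 scale.

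Of 7 cell death genes tied to lasting ER stress, 2 were higher, Bcl2 and Tnfrsf10b, and 4 were lower, Bax, Bbc3, Bcl2l11 and Casp12. Their median log2 fold change was -0.16. Bcl2l11, which encodes the death activator BIM and is a reported target of CHOP, fell from 44.8 ± 4.15 to 21.9 ± 1.64 CPM (edgeR adjusted p 1.62e-09, log2 fold change -1.03), while Bcl2, a death inhibitor, rose from 11.8 ± 1.47 to 16.8 ± 1.54 CPM (0.52). Bbc3, which encodes PUMA, had a log2 fold change of -0.40.

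Cytosolic heat shock genes were measured beside these as the corresponding response outside the ER. Of 12, 7 were higher, 3 lower and 2 not past the threshold, with 2 at least 2-fold higher. Their median log2 fold change was 0.30. It lay above the medians of the 23 ER chaperones and folding enzymes (0.25) and the ATF4 targets (0.18). The median of ER-associated degradation (0.36) was higher. The small heat shock gene Hspb8 rose most (1.39). The abundant Hspa8 fell from 2270 ± 36.8 to 1836 ± 56.6 CPM (-0.31) and Hsp90ab1 had the largest fall (-0.36), whereas Hsph1 rose (0.41). Hspa1a and Hspa1b are near-identical and their counts are uncertain.

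**Figure D4:**
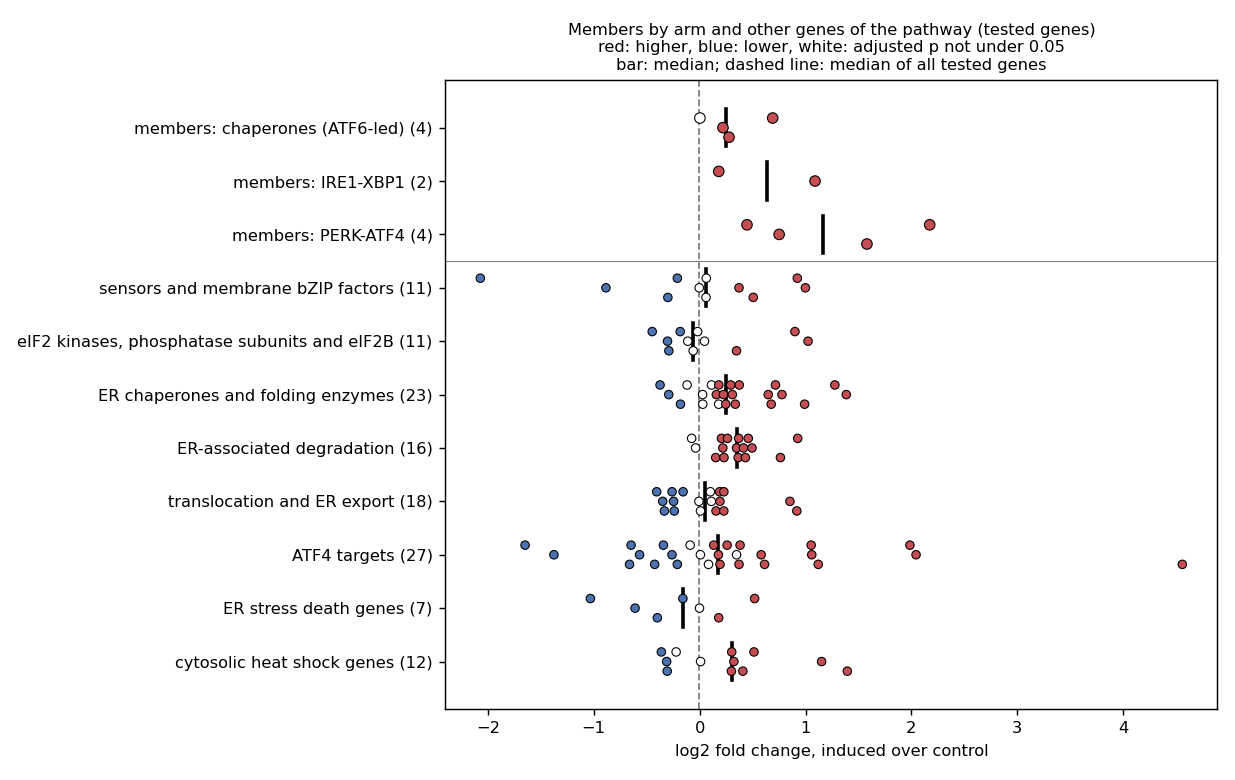
Log2 fold change of induced over control cells for each tested gene, with the members by arm above the line and 8 other gene lists below it, the number tested in parentheses. The cytosolic heat shock genes among these lists are a comparison from outside the ER. Red points were higher, blue lower and white not past an adjusted p of 0.05, bars are medians and the dashed line is the median of all tested genes. ER-associated degradation has no blue point, and the ATF4 targets reach from -1.65 to 4.56. The highest of these targets, Fgf21, could pass the count filter only through the induced libraries.

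The ER stress element was also followed beyond the members. The 37 windows with it belonged to 35 genes, of which 32 were matched in the count table and 17 were tested. Of these 17, 11 were higher, 4 lower and 2 not past the threshold, with a median log2 fold change of 0.22. Without the 3 members 8 of 14 were higher, with a median of 0.19, against 32.6% of all tested genes higher. Canx, Creld2, Dnajc3, Ero1b, Pdia6 and Syvn1 were both in this set and in the pathway lists, and among these Pdia6 was lower and the others higher. Xlr3a and Xlr3c, X-linked genes of a multicopy family whose reads may be split between copies, also carry the element. They had log2 fold changes of 4.31 and 7.56 at a mean level of 0.508 and 0.697 CPM. At these levels and fold changes they could pass the count filter only through the induced libraries. They could thus be counted only as higher, and both are among the 8 and the 11.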

How the data were processed

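The authors deposited one table of raw counts per gene and library and FPKM values in the same table. Per the labels' processing notes, HISAT2 2.0.5, featureCounts 1.5.0-p3, DESeq2 1.16.1 and mm10 were used, while the methods name another DESeq version. The strand setting is not given in the sources used here. The deposited FPKM equal counts divided by gene length and 1 depth per library, 0.980 to 1.03 times the total. Fold changes, p-values, group means and Gene Ontology tables of the authors' own comparison were not used.

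The edgeR package (4.0.16, under R 4.3.3) was used for the counts. Its filterByExpr step, with a count of 10 and a total of 15 as minimum, left 14246 genes, which were scaled by TMM. Induced and control libraries were compared by its quasi-likelihood test, two-sided, with p-values adjusted by Benjamini-Hochberg and read at 0.05. The F statistic together with the fold change gave each standard error. The test was also run on simulated counts with few genes changed and a common dispersion for all genes. Changes were widespread in these libraries, so that run does not check the calls made here. Alternatives were DESeq2 1.42.0, other scalings and filters, a replicate block, leaving out each library, and limma 3.58.1 on log2 FPKM with 1 or 0.1 added. Within groups, pairs of libraries had a chi-square of 2.56 to 8.91 for each degree of freedom, above sampling noise, and none were merged. A count of 0 allows up to 0.151 to 0.158 CPM per library, taking 3 counts as the limit, for counting error only.

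The members and lists were chosen with earlier results of these data known. Named genes are the members, genes listed by name for each of the other lists, and the called gene with the highest and lowest fold change of each list. Promoter windows are from RefSeq (GRCm38.p6), exons from GENCODE M21 (98.3% of shared genes had the deposited coordinates), and copies were sought with blastn 2.17.0 (identity of at least 95% over 100 bases).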

Additional observations from a re-analysis of the deposited data

How the results depend on the processing

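The number of members called, 9, and of members called at least 2-fold, 3, was the same under all 14 alternatives, and each of the other gene lists stayed within 1.5 times its count. Genes called over the whole table numbered 9225, and 8514 to 9348 with 1 library left out. The genes called at least 2-fold numbered 2438, and 1032 when limma was run on log2(FPKM + 1), a scale on which the fold changes of low genes are smaller. Library totals alone lowered the median of all genes from -0.01 to -0.04 on the log2 scale. Of 770 values of 55 named genes, 749 kept direction and side of the threshold, 8 lost the call, 2 gained it and 11 changed sign. The sign changes were those of Pdia4 and Mbtps1, neither of which passed under any setting. The log2 fold change of Pdia4 was -0.034 under library totals alone, and from -0.0145 (without induced replicate 2) to 0.0198 with 1 library left out, being -0.0046 without control replicate 3. Mbtps1, at -0.0037 in the reported fit, was at 0.0069 under DESeq2 and under median-ratio size factors, 0.0076 and 0.0073 under limma with 0.1 or 1 added, 0.0024 with no filter, and from -0.0105 to 0.0144 with 1 library left out, being 0.0026 and 0.0054 without induced replicate 2 or 3.

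Same-numbered libraries did not deviate together from their group means (correlations over genes of -0.0020, -0.015 and 0.027). With the replicate block 9063 genes called and 9 members called were counted. Gene counts limit these results to RNA amounts.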
